A study of Mus musculus with 6 samples.

Results

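The genes described here are 9 transcription factors that establish or maintain hepatocyte identity and are not nuclear receptors: Foxa1, Foxa2, Foxa3, Cebpa, Cebpb, Onecut1, Onecut2, Prox1 and Gata4. They were taken by gene symbol from a liver count table of 45706 genes, and all 9 passed the filter on low counts that left 14069 genes tested. The samples were mouse livers, 3 labelled as Entpd8 knockout (KO 1 to KO 3) and 3 labelled wild type (WT 1 to WT 3), profiled by poly(A) RNA sequencing in a series on NTPDase8, the ectonucleotidase encoded by Entpd8, and liver ischemia. The labels give no treatment, sex, age or sampling time and no account of how the knockout was made. Whether each library stands for its own animal is not stated either, and the spread behind the p-values may therefore be technical. Library totals ran from 40800058 to 46473531 counts in knockout and from 32768774 to 39929978 counts in wild-type livers.

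Hepatocytes hold their state through a small set of DNA-binding proteins that occupy the same enhancers and also control one another's genes. The FOXA proteins are forkhead pioneer factors that open chromatin at liver enhancers, the C/EBP proteins are leucine zipper factors of metabolic and acute-phase genes, and the ONECUT proteins combine a cut domain with a homeodomain and act in liver and bile duct development. PROX1 is a homeodomain protein of early liver growth that also represses bile acid and lipid genes with nuclear receptors, and GATA4 is a zinc finger factor of the liver bud.

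Promoter sequences are shown for 4 of these genes, Prox1 because its transcript fell, Cebpa and Cebpb because they were the most abundant, and Foxa2 because its promoter holds a match to the binding letters of another gene of the set. They are the 250 bases before the start of the outermost RefSeq transcript (build GRCm38.p6), read 5′ to 3′ on the gene's own strand, with matches to any of the searched motifs in capitals. Prox1 lies on the minus strand at chr1:190170828-190171077, Cebpa on the plus strand at chr7:35119043-35119292, Cebpb on the plus strand at chr2:167688665-167688914 and Foxa2 on the minus strand at chr2:148046970-148047219.
Prox1: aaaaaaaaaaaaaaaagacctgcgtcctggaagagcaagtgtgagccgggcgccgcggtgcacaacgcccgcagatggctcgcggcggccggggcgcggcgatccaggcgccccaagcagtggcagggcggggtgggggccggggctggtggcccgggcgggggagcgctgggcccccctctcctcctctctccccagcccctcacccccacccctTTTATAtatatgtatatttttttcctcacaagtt
Cebpa: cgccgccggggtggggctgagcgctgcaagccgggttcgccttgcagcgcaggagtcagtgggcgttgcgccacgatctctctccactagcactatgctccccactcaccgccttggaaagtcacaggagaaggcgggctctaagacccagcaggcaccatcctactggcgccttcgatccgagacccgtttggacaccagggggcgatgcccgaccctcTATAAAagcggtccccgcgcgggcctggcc
Cebpb: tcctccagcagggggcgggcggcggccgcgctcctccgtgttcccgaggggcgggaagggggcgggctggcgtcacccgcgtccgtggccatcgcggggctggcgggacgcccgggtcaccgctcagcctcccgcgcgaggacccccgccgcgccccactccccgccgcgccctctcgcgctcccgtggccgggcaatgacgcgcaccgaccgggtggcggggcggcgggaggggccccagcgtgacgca
Foxa2: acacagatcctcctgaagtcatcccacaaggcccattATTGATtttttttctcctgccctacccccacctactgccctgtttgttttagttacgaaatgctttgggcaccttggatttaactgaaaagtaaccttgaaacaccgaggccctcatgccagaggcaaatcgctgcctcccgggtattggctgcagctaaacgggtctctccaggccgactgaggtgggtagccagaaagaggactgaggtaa

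The capitals mark a match to the TATA box letters TATAAA at position -34 from the start of Prox1, on the other strand. In Cebpa they mark such a match at -30, on the gene's own strand. In Foxa2 they mark a match to ATCAAT, letters bound by ONECUT factors, at position -213 from the start, on the other strand. The Cebpb stretch held no match, and its GC content was 81.6%, with 41 CpG pairs. Over all 32851 promoter windows, the medians were 52.4% GC and 6 CpG pairs. GC content was 64.8% for Prox1 with 20 CpG pairs, 66.4% for Cebpa with 22 and 50.8% for Foxa2 with 6. In windows of 300 bases that also take in 50 bases after the start, 7 of the 9 genes had an entry, in 10 windows. TATAAA was found, at any position and on either strand, in 5 of these 10 windows, against 13.6% of all promoters. Besides those of Prox1 and Cebpa, the matches lay at -36 in Foxa3, at 22 after the start in Cebpb and at -208 in an inner Foxa2 window. ATCAAT was found in 1 (7.54% of all promoters), the FOXA letters TGTTTAC in 1, that of Foxa1 (3.65%), and the GATA letters AGATAA in 1, an inner Foxa2 window (11.2%). The C/EBP letters TTGCNNAA (10.8% of all promoters), the AP-1 letters TGANTCA (7.81%), the cAMP response letters TGACGTCA (1.79%) and the STAT letters TTCNNNGAA (8.30%) were found in 0 of the 10. Both strands were searched, and a match describes letters in this window only.

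Entpd8 itself was lower in all knockout livers, by -5.72 ± 0.48 (SE) on the log2 scale in edgeR with an adjusted p of 0.00151. Entpd8 stood at 0.382, 0.723 and 1.09 CPM (counts scaled to library size by TMM) in KO 1, KO 2 and KO 3, against 39.0, 22.4 and 56.5 CPM in WT 1, WT 2 and WT 3. The 8 hepatocyte marker transcripts summed to 73228 to 92553 CPM in knockout and 69701 to 86461 CPM in wild-type livers. Alb was the largest part of this sum (51426 of 87583 CPM in KO 1). Of the 8, Cyp2e1 rose (log2 fold change 0.96 ± 0.17 (SE), adjusted p = 0.0107, edgeR) and Fgb fell (-0.66 ± 0.17, adjusted p = 0.0346). These are 25.0% of the 8, against 20.4% of all genes with an adjusted p under 0.05. Cyp2e1 did not pass without KO 1 (adjusted p = 0.0571), and the losses of Fgb are given below. Mitochondrially encoded transcripts made up 10.1% to 11.7% of counts in knockout and 6.52% to 8.34% in wild-type libraries. With mitochondrial and hemoglobin genes left out of the edgeR fit, 2857 genes were called, against 2871. Onecut2 (-0.95, adjusted p = 0.0102) and Prox1 (-0.60, adjusted p = 0.0205) were called in that fit too. Any other part of this share in the results was not tested.

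Of the 9 factors, 2 fell in knockout livers (Onecut2 and Prox1), 0 rose and 7 did not pass the test (edgeR quasi-likelihood test, adjusted p under 0.05 over all genes tested). At an unadjusted p under 0.05 the count was again 0 higher and 2 lower, and DESeq2 and limma voom each called 0 higher and 2 lower. Among all 14069 genes, 20.4% were called, made up of 10.6% lower and 9.80% higher in knockout, so the 22.2% called among the 9 is close to the background. The median log2 fold change was -0.07 over the 9 factors and -0.02 over all genes tested. Groups did not overlap for the same 2 factors, against 40.7% of all genes, 22.0% lower and 18.7% higher in knockout. The number called was 1 without KO 1, KO 2, KO 3 or WT 1, and 3 without WT 2.

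**Figure D1:**
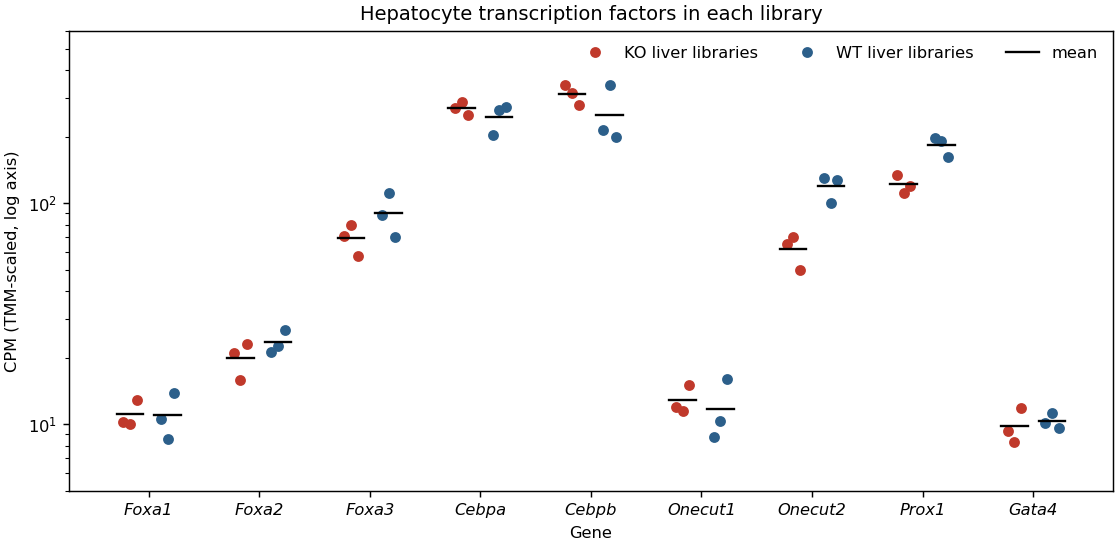
Level of each of the 9 transcription factors in CPM (TMM-scaled, log axis), with knockout libraries left of wild-type libraries and a bar at each group mean (n = 3 per group). The knockout points lie below the wild-type points without overlap for Onecut2 (49.97 to 70.6 against 100.7 to 129.9 CPM) and Prox1 (111 to 134 against 162 to 197 CPM), and the groups overlap for the other 7 genes.

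Onecut2, a cut homeodomain factor whose role in liver development overlaps that of Onecut1, had the largest difference of the 9. It had 2569, 2831 and 2376 counts in KO 1, KO 2 and KO 3, against 4713, 3930 and 4585 in WT 1, WT 2 and WT 3. Scaled, these were 65.4, 70.6 and 49.97 CPM in knockout, against 129.9, 100.7 and 127 CPM in wild-type livers. The lowest wild-type library, WT 2, was above the highest knockout library, KO 2. The mean was 62.0 ± 10.7 CPM in knockout and 119 ± 16.1 CPM in wild-type livers (SD, n = 3 per group). Knockout livers held 0.519 times the wild-type level (log2 fold change -0.94 ± 0.17 (SE), 95% interval -1.33 to -0.56, adjusted p = 0.0101, edgeR). The call held under all 18 alternatives, with adjusted p up to 0.0468 without KO 1.

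Prox1, the homeodomain factor of early liver growth, also fell. Its level was 134, 111 and 120.1 CPM in KO 1, KO 2 and KO 3, against 197, 192 and 162 CPM in WT 1, WT 2 and WT 3. All 3 knockout livers were below WT 3, the lowest wild-type liver. The mean was 122 ± 11.4 CPM in knockout and 184 ± 19.1 CPM in wild-type livers (SD, n = 3 per group), and the knockout level was 0.662 times the wild-type level. The log2 fold change was -0.60 ± 0.13 (SE, 95% interval -0.90 to -0.29, adjusted p = 0.0206, edgeR). The call was lost without KO 1 (adjusted p = 0.0732), KO 2 (0.0686), KO 3 (0.0574) or WT 1 (0.0579), with log2 fold changes from -0.66 to -0.53.

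Onecut2 and Prox1 have the longest transcripts of the set, with 16234 and 8390 bases of exon in GENCODE M21, against 1504 to 3957 for the other 7. Across 14023 genes with a known length, log2 fold change and exonic length had a Spearman rho of -0.19, a correlation across genes within this comparison, which are not independent replicates. With the length trend of each library removed, the log2 fold change was -0.73 for Onecut2 (adjusted p = 0.0418) and -0.45 for Prox1 (adjusted p = 0.0481).

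Onecut1, also known as HNF6, binds the Foxa2 promoter and acts in biliary and hepatocyte differentiation. It had 12.01, 11.5 and 15.1 CPM in KO 1, KO 2 and KO 3, against 8.71, 10.3 and 16.0 CPM in WT 1, WT 2 and WT 3, and the groups overlapped. Its log2 fold change was 0.14 ± 0.23 (SE, 95% interval -0.39 to 0.68, adjusted p = 0.698), and without WT 1 it was -0.034. Onecut1 shares 54.9% of its exonic bases with the long noncoding gene Gm20649, to which between 0 and 31.7 counts per library were assigned. With those counts added to Onecut1, its log2 fold change was 0.09.

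The balance of the ONECUT pair was followed within each library as a ratio of CPM per kilobase of exon. Onecut2 stood at 1.33, 1.497 and 0.805 times Onecut1 in KO 1, KO 2 and KO 3, against 3.64, 2.38 and 1.94 times in WT 1, WT 2 and WT 3. All 3 knockout ratios were below all 3 wild-type ratios, with means of 1.21 ± 0.36 in knockout and 2.65 ± 0.879 in wild-type livers (SD, n = 3 per group). The difference in this ratio was not tested. Onecut2 has a long final exon, and gene-level counts do not show how much of it each library covered, so the size of the ratio depends on the length used.

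**Figure D2:**
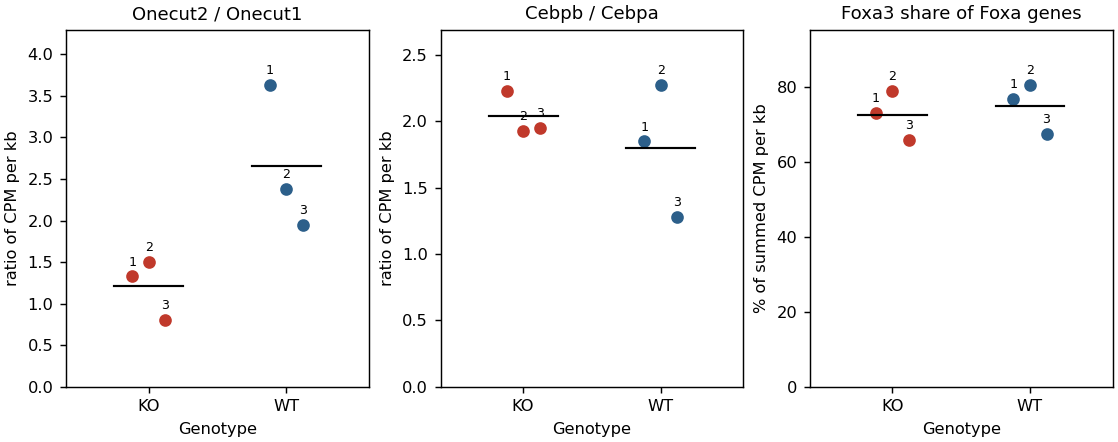
Ratios within each library from CPM per kilobase of exon, with library numbers beside the points and a bar at each mean (n = 3 per group). Left, Onecut2 over Onecut1, from 0.805 to 1.497 in knockout and 1.94 to 3.64 in wild-type livers. Middle, Cebpb over Cebpa, where the groups overlap. Right, the Foxa3 share of the 3 Foxa genes, where the groups overlap.

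Foxa3, Foxa2 and Foxa1 encode the forkhead pioneer factors, of which FOXA1 and FOXA2 are needed for liver specification in the mouse embryo and FOXA3 is the most abundant in adult liver. Foxa3 had 71.3, 79.7 and 57.5 CPM in KO 1, KO 2 and KO 3, against 88.5, 111 and 70.5 CPM in WT 1, WT 2 and WT 3. WT 3 lay within the knockout range, and the log2 fold change of -0.38 ± 0.19 (SE, 95% interval -0.81 to 0.06) did not pass (adjusted p = 0.197). Foxa2 had 20.9, 15.8 and 23.0 CPM in KO 1, KO 2 and KO 3, against 21.2, 22.6 and 26.7 CPM in WT 1, WT 2 and WT 3. Its log2 fold change was -0.24 ± 0.16 (SE, 95% interval -0.62 to 0.14, adjusted p = 0.336). Foxa1 had 10.3, 10.04 and 12.9 CPM in KO 1, KO 2 and KO 3, against 10.5, 8.58 and 13.8 CPM in WT 1, WT 2 and WT 3. The log2 fold change of Foxa1 was 0.02 ± 0.20 (SE, 95% interval -0.44 to 0.47, adjusted p = 0.961), and its sign turned under upper-quartile scaling (-0.034) and with library totals alone (-0.066).

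Per kilobase of exon, Foxa3 made up 73.2%, 79.0% and 65.9% of the 3 Foxa transcripts in KO 1, KO 2 and KO 3, against 77.0%, 80.7% and 67.6% in WT 1, WT 2 and WT 3. The libraries numbered 3 had the lowest Foxa3 share in both genotypes. The summed Foxa level was 46.7 ± 3.48 CPM per kilobase in knockout and 58.5 ± 8.49 CPM per kilobase in wild-type livers (SD, n = 3 per group). In this sum, all 3 knockout livers (42.8 to 49.5) were below all 3 wild-type livers (51.2 to 67.8), and the difference in the sum was not tested.

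Cebpa, the C/EBP factor of the quiescent metabolic hepatocyte, had 270.2, 288 and 249.5 CPM in KO 1, KO 2 and KO 3, against 204, 263 and 272 CPM in WT 1, WT 2 and WT 3. The knockout values spanned the 2 higher wild-type libraries (log2 fold change 0.13 ± 0.15 (SE), 95% interval -0.22 to 0.47, adjusted p = 0.583). Cebpb, the C/EBP factor induced in the acute-phase response and in regeneration, had 344, 317 and 278 CPM in KO 1, KO 2 and KO 3, against 215, 342 and 199 CPM in WT 1, WT 2 and WT 3. WT 2 stood at the level of KO 1, while WT 1 and WT 3 were below all knockout livers. The log2 fold change of Cebpb was 0.31 ± 0.22 (SE, 95% interval -0.19 to 0.81, adjusted p = 0.340). Without WT 2 it was 0.60 ± 0.15 and passed (adjusted p = 0.0304). Per kilobase, the Cebpb to Cebpa ratio was 2.23, 1.93 and 1.95 in KO 1, KO 2 and KO 3, against 1.85, 2.28 and 1.28 in WT 1, WT 2 and WT 3, with overlap. Cebpb is translated into activating and inhibitory proteins from one mRNA, which these counts cannot separate.

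Gata4, which acts in the liver bud and in sinusoidal endothelial cells, had 9.29, 8.35 and 11.8 CPM in KO 1, KO 2 and KO 3, against 10.1, 11.2 and 9.63 CPM in WT 1, WT 2 and WT 3. KO 3 was the highest and KO 2 the lowest of the 6 libraries. Its log2 fold change was -0.07 ± 0.17 (SE, 95% interval -0.45 to 0.31, adjusted p = 0.797). For the 7 factors that did not pass, a miss does not show that the genotypes were alike, and the widest of their intervals, that of Onecut1, spans -0.39 to 0.68.

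**Figure D3:**
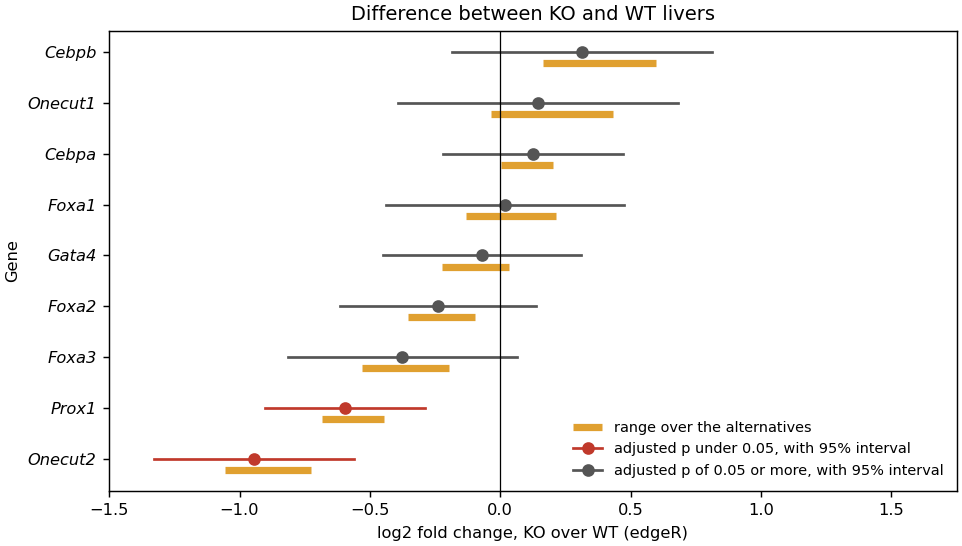
log2 fold change of each factor in knockout over wild-type livers, with 95% intervals from edgeR, and beneath each a bar for the range over the 18 alternatives. Only the intervals of Onecut2 (-1.33 to -0.56) and Prox1 (-0.90 to -0.29) exclude 0.

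Ordered by CPM per kilobase of exon, the 9 factors had the same rank in both genotypes. Cebpb was highest, at 208 ± 21.95 in knockout and 167 ± 52.1 in wild-type livers, and Cebpa followed at 102 ± 7.26 in knockout and 93.5 ± 14.1 in wild-type livers (SD, n = 3 per group). Foxa3 came next with 34.1 ± 5.49 in knockout and 44.3 ± 10.1 in wild-type livers, then Prox1 with 14.5 ± 1.36 in knockout and 21.9 ± 2.28 in wild-type livers. Foxa2 had 9.13 ± 1.69 in knockout and 10.8 ± 1.32 in wild-type livers. Libraries of these neighbours in the order did not overlap within either genotype. Onecut2 stood at 3.82 ± 0.66 CPM per kilobase in knockout and 7.35 ± 0.995 in wild-type livers. In knockout livers its range (3.08 to 4.35) overlapped that of Foxa1 (3.15 to 4.05), while in wild-type livers it was above Foxa1 in every library (6.20 to 7.999 against 2.69 to 4.32). Foxa1, Onecut1 and Gata4 overlapped one another in both genotypes, with the lowest mean for Gata4 at 2.70 ± 0.496 in knockout and 2.83 ± 0.224 in wild-type livers.

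The genes are spread over 7 chromosomes in GRCm38. Foxa2 (148042877 to 148046969, minus strand) and Cebpb (167688915 to 167690418, plus strand) lie on chromosome 2 with Entpd8, at distances of 123 and 143 Mb from it. Onecut2 occupies chromosome 18 from 64340020 to 64400987 (plus strand), and Prox1 chromosome 1 from 190118035 to 190170714 (minus strand). Within 10 kb of the 9 factors, 14 other genes are annotated, 9 of them tested, of which 2 were called higher and 1 lower in knockout livers. Over all genes tested, 9.80% were called higher and 10.6% lower. Tmem189, whose gene body overlaps Cebpb on the other strand with no shared exonic base, rose (log2 fold change 0.67 ± 0.18 (SE), adjusted p = 0.0359). Gm16551, a noncoding transcript 1786 bases from Onecut1, rose (0.88 ± 0.23, adjusted p = 0.0341), and Irf2bp1, 6506 bases from Foxa3, fell (-0.46 ± 0.13, adjusted p = 0.0398). Prox1os, antisense to the start of Prox1, had 3.51 ± 0.527 CPM in knockout and 3.07 ± 0.752 CPM in wild-type livers (SD, n = 3 per group, adjusted p = 0.617). The labels do not state that strand was kept, and 1.59% of Prox1 exonic bases are shared with Prox1os. The calls of Tmem189, Gm16551 and Irf2bp1 each ended with the replicate block (adjusted p = 0.0528, 0.0809 and 0.0756), with library totals alone and without any of 4 single libraries (adjusted p up to 0.169).

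The genes whose pattern over the 6 libraries was most like that of the 2 called factors were then found among 10442 well-expressed genes by the root mean square difference of centred log2 CPM. Nearest to Onecut2 were Lrrc14 (0.08), the histone methyltransferase gene Setmar (0.08) and the lysine methyltransferase gene Etfbkmt (0.08). Nearest to Prox1 were Parg, which removes poly(ADP-ribose) (0.06), the microtubule plus-end gene Clasp1 (0.06) and the cohesin subunit gene Stag1 (0.07). Each of these 6 genes was called lower in knockout livers in edgeR, with log2 fold changes from -0.98 for Setmar to -0.52 for Clasp1 and Stag1, which follows from how they were chosen. All 6 lost the call without KO 1, and all but Etfbkmt under the replicate block. Setmar and Clasp1 lost it under 6 of the 18 alternatives, Parg under 5, Lrrc14 and Stag1 under 3 and Etfbkmt under 1 (adjusted p up to 0.0940). Leaving out KO 2 ended it for Setmar, Clasp1, Parg and Stag1, KO 3 for Setmar, Clasp1 and Parg, WT 1 for these 3 and Lrrc14, and WT 3 for Setmar.

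Other transcription factors of the hepatocyte network, outside the nuclear receptors, were mostly lower where they passed. Of 24 listed, 22 were tested, 6 fell (27.3%, against 10.6% of all genes) and 1 rose (4.55%, against 9.80%), with a median log2 fold change of -0.17 against -0.02 over all genes tested. Nfia, a nuclear factor I protein, had 32.5 ± 1.06 CPM in knockout and 80.4 ± 12.8 CPM in wild-type livers (log2 fold change -1.31 ± 0.14 (SE), adjusted p = 0.00212). Zfpm1, a cofactor of GATA proteins also called FOG1, had 18.8 ± 0.49 CPM in knockout and 37.8 ± 9.83 CPM in wild-type livers (-1.01 ± 0.18, adjusted p = 0.0104). Cebpg (-0.61 ± 0.14, adjusted p = 0.0213), Tbx3 (-1.19 ± 0.27, adjusted p = 0.0225) and Tcf7l2 (-0.54 ± 0.15, adjusted p = 0.0399) also fell. Nfia passed under all 18 alternatives, Zfpm1 under all but the fit without KO 1 (adjusted p = 0.0502). Cebpg, Tbx3 and Tcf7l2 each lost their call under the replicate block (adjusted p = 0.0664, 0.0507 and 0.0941) and without KO 1, KO 2 or WT 1, Tbx3 and Tcf7l2 also without KO 3, and Tcf7l2 without WT 3 or once the trend with length was taken out (adjusted p up to 0.161).

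The relatives of the 9 factors by protein family included genes called in each direction. This list shares genes with the network list above, so the called genes Cebpd, Cebpg and Zfpm1 are counted in both. Of 28 tested, 6 rose (21.4%, against 9.80% of all genes) and 2 fell (7.14%, against 10.6%), 28.6% called in all against 20.4%, with a median log2 fold change of 0.03. Cebpd, the C/EBP member induced with Cebpb in the acute-phase response, rose to 41.0 ± 2.52 CPM in knockout, against 21.0 ± 7.36 CPM in wild-type livers (SD, n = 3 per group, log2 fold change 0.97 ± 0.23, adjusted p = 0.0240). Ddit3, a C/EBP relative of the stress response, also rose, as did the forkhead genes Foxq1 (1.04 ± 0.28, adjusted p = 0.0362), Foxj3 and Foxc1 and the cut-related gene Satb1. Cebpg, which pairs with other C/EBP proteins, fell as given above. Across the C/EBP genes tested, then, edgeR called Cebpd and Ddit3 higher and Cebpg lower, while Cebpa, Cebpb and Cebpe (adjusted p = 0.892) did not pass. Cebpe averaged only 4.45 CPM in knockout and 4.61 CPM in wild-type livers. Gata6, the other GATA factor of early liver, had 18.6 ± 2.78 CPM in knockout and 12.7 ± 3.52 CPM in wild-type livers (adjusted p = 0.0956). The call of Cebpd ended without KO 1, KO 2, KO 3 or WT 1 (adjusted p up to 0.0919), that of Foxq1 without any single library except WT 3, with no low-count filter or with library totals alone (up to 0.103). Ddit3 lost its call under 7 alternatives, among them leaving out any single library except WT 2 (adjusted p up to 0.116). Foxj3 lost it under 8, also without any single library except WT 2 (adjusted p up to 0.198). Foxc1 and Satb1 had mean log2 CPM below 0, and their alternatives were not run.

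Of 28 hepatocyte genes with textbook control by these factors, 7 rose (25.0%, against 9.80% of all genes), 6 fell (21.4%, against 10.6%) and 15 did not pass, with a median log2 fold change of 0.04. The glucose transporter Slc2a2 had 159.8 ± 17.2 CPM in knockout and 56.1 ± 14.1 CPM in wild-type livers (log2 fold change 1.51 ± 0.19, adjusted p = 0.00382). G6pc, Gys2, Otc and Fabp1 were also among those that rose. Of the fallers, 5 encode secreted plasma proteins: the acute-phase proteins Saa1 (-1.85 ± 0.31, adjusted p = 0.00843) and Hp (-1.29 ± 0.23, adjusted p = 0.0104), Orm1, Fgb and Hpx. The other faller was Pck1, the gluconeogenic enzyme. Alb (adjusted p = 0.323), Ttr (0.649), Apoa1 (0.784) and F9 (0.892), long-used markers of the hepatocyte state, did not pass. These 4 were picked after their values were seen. Groups did not overlap for 11 of the 28, lower in knockout, and for 7, higher, against 22.0% and 18.7% of all genes. The 11 include the uncalled Trf (log2 fold change -0.47), Apob (-0.44), Cps1 (-0.36), Tdo2 (-0.37) and Arg1 (-0.47). Hp lost its call without KO 1 (adjusted p = 0.0592), while Slc2a2 and Saa1 kept theirs under all 18 alternatives. The other called genes named here were less stable. G6pc lost its call under 8 alternatives (adjusted p up to 0.178), Gys2, Fgb and Pck1 under 7, Fabp1, Orm1 and Hpx under 5 and Otc under 4. Each of these 8 lost it without KO 1 or without KO 2, all but G6pc without WT 1, and all but Gys2 and Otc without KO 3. Gys2, Fgb, Orm1 and Hpx also lost it without WT 2, and G6pc, Pck1 and Fabp1 without WT 3.

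Of 10 fetal liver genes, 6 were tested and 2 rose (33.3%, against 9.80% of all genes). They were Cd24a (1.21 ± 0.27, adjusted p = 0.0200) and Sox4 (1.46 ± 0.35, adjusted p = 0.0261). Afp stood at 1.04 ± 0.356 CPM in knockout and 0.792 ± 0.358 CPM in wild-type livers (adjusted p = 0.555). H19, Dlk1, Sox11 and Spink1 were below the filter. Among 7 regulators of C/EBP protein level, 1 rose (14.3%, against 9.80% of all genes) and the other 6 did not pass. Trib1, the adaptor that targets C/EBP alpha for degradation, rose to 216 ± 42.8 CPM in knockout, against 84.5 ± 36.8 CPM in wild-type livers (SD, n = 3 per group, log2 fold change 1.35 ± 0.30, adjusted p = 0.0206). Among 8 IL-6 and cAMP signal genes upstream of Cebpb, 1 fell (12.5%, against 10.6% of all genes), Creb1 (-0.75 ± 0.16, adjusted p = 0.0166). The other 7 did not pass in edgeR, among them Stat3 (adjusted p = 0.623). Socs3 (0.80 ± 0.32, adjusted p = 0.116 in edgeR) was called higher by DESeq2 (adjusted p = 0.0356). Cd24a lost its call without KO 1, KO 3 or WT 3, Sox4 without these or under the replicate block, Trib1 without KO 1, KO 3 or WT 1 or under the block, and Creb1 without KO 1 or under the block (adjusted p up to 0.0834).

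**Figure D4:**
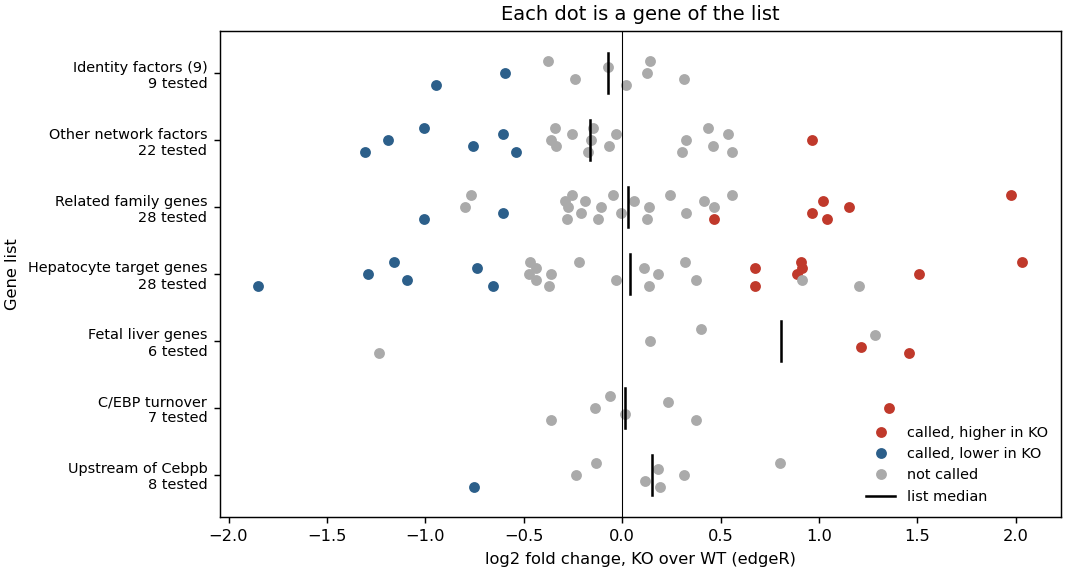
log2 fold change in knockout over wild-type livers for each tested gene of 7 lists, with a bar at the list median. Called genes are coloured by direction. The 9 identity factors hold 2 called genes, both lower, and the 22 other network factors hold 6 lower and 1 higher.

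Several of the 9 genes are also expressed outside hepatocytes, so markers of those cells were summed in each library. In bulk liver, fewer cells of a type and less RNA per cell cannot be told apart. The counts below stand against 10.6% of all genes called lower and 9.80% called higher in knockout. Kupffer cells are a source of Cebpa and Cebpb, and 5 of 8 Kupffer markers fell (62.5%). Their sum was 52.0 to 65.2 CPM in knockout and 102 to 241 CPM in wild-type livers. Biliary cells are a source of Foxa2 and Onecut1, and 3 of 7 biliary markers tested rose (42.9%: Krt19, Epcam and Tspan8). Their sums were 136 to 328 CPM in knockout and 92.1 to 121 CPM in wild-type livers. Sinusoidal endothelial and stellate cells are sources of Gata4. Of 9 endothelial markers 2 fell (22.2%: Stab1 and Gpr182), with sums of 129.6 to 188 CPM in knockout and 179 to 215 CPM in wild-type livers. Of 8 stellate markers 1 fell (Col1a1), a share of 12.5% that is close to the background. Stellate sums were 109 to 226 CPM in knockout and 172 to 255 CPM in wild-type livers. At an unadjusted p under 0.05, 4 of the 8 were lower, and DESeq2 called 3 lower and limma voom 1. The stellate median log2 fold change was -0.54, against -0.02 over all genes tested. Dcn, with a log2 fold change of -0.07, was the largest part of the stellate sum (95.8 of 155.6 CPM in KO 1). Lymphatic endothelium is a source of Prox1, and 0 of its 5 markers passed in edgeR (1 at an unadjusted p under 0.05, 0 in DESeq2 and limma voom), with sums of 21.4 to 51.8 CPM in knockout and 33.9 to 43.5 CPM in wild-type livers. Among these 5, Flt4 was at 10.2, 6.80 and 13.3 CPM in KO 1, KO 2 and KO 3, against 15.2, 15.6 and 14.9 CPM in WT 1, WT 2 and WT 3. Its groups did not overlap, and its log2 fold change of -0.59 ± 0.22 (SE, adjusted p = 0.0978) was close to that of Prox1 and passed without KO 3 (-0.84, adjusted p = 0.0379). Reln, at 22.9 ± 12.0 CPM in knockout and 21.1 ± 5.27 CPM in wild-type livers (SD, n = 3 per group), overlapped, as did Pdpn, Ccl21a and Mmrn1, each under 1 CPM on average in both genotypes. Reln was the largest part of the lymphatic sum in each library (18.9 of 31.1 CPM in KO 1, 27.1 of 43.5 CPM in WT 1). Which cells the Reln and Flt4 counts came from was not tested, so this sum cannot be read as lymphatic endothelium alone. Neutrophil markers summed to 93.6 to 132 CPM in knockout and 20.5 to 135 CPM in wild-type livers, with 0 of 8 called in edgeR (1 at an unadjusted p under 0.05, 1 in DESeq2 and 0 in limma voom). The sum was 135 CPM in WT 1, 47.1 in WT 2 and 20.5 in WT 3. Without WT 1, S100a9 (adjusted p = 0.0336), Cxcr2 (0.0360) and Retnlg (0.0155) passed as higher in knockout in edgeR. Il1r2 passed without WT 3 (0.0462). The alternatives were not run for the other neutrophil markers. Of the called markers of these cells, Clec4f, Krt19 and Epcam kept their calls under all 18 alternatives, and Tspan8 lost its call under the replicate block (adjusted p = 0.0502). Stab1 and Vsig4 lost theirs under 7 alternatives, Col1a1 and C1qa under 5, Csf1r and Cd5l under 2 and Gpr182 under 1 (adjusted p up to 0.162), and leaving out KO 1 ended each of these 7. Leaving out KO 2 ended it for Stab1, Col1a1, Vsig4, C1qa and Csf1r, KO 3 for Col1a1, Vsig4, C1qa and Cd5l, WT 1 and WT 3 for Stab1, Col1a1, Vsig4 and C1qa, and WT 2 for Stab1. No marker was at 0 in all 6 libraries, and the part of these cells in the results was not tested.

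**Figure D5:**
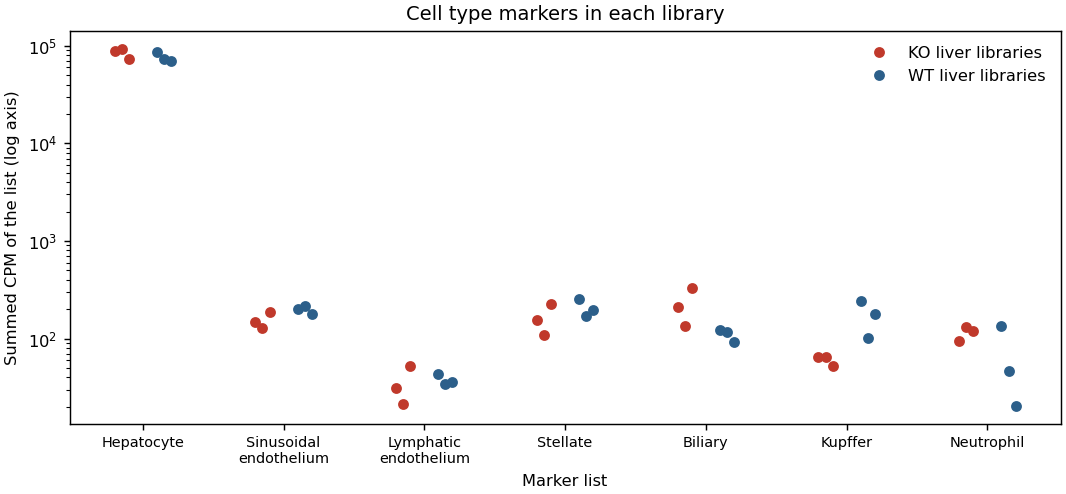
Summed CPM (log axis) of 7 marker lists in each library, with knockout points left of wild-type points (n = 3 per group). The Kupffer sums are lower and the biliary sums higher in knockout livers without overlap, and the other sums overlap.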

How the data were processed

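Poly(A) RNA from 3 Entpd8 knockout and 3 wild-type mouse livers was sequenced (RNeasy extraction and NEBNext Ultra II libraries, per the labels' protocols). Per the submitters' processing notes, the tools were Trim Galore, STAR and Salmon on GRCm38. Tool versions, their order and the annotation used are not stated there. The authors deposited an estimated count per gene and library that was not scaled, per the file headers and values. Sharing of reads among similar transcripts by a model makes paralogs and overlapping genes less certain.

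Counts were rounded, filterByExpr removed low genes and TMM set library scaling. Genotype was tested two-sided with edgeR 4.0.16 (glmQLFit, robust, R 4.3.3), with Benjamini-Hochberg adjustment over 14069 genes and a threshold of 0.05. The standard error is the log2 fold change divided by the root of F, and intervals use its t quantile. Of 45706 genes, 45143 had a symbol. Lengths and positions came from GENCODE M21 (GRCm38), and promoters from RefSeq (GRCm38.p6). CPM per kilobase divides by all exonic bases of the GENCODE basic set, and ratios within a library do not depend on scaling. The list symbol Tf was matched to Trf through RefSeq synonyms.

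The members and lists were chosen with earlier results of these data known. Named genes are the 9 factors, Entpd8, up to 4 genes per list by smallest p (from a mean log2 CPM of 0 upwards), the other called genes of a list, the 3 nearest patterns (mean log2 CPM of at least 1) and all genes within 10 kb. Other genes named, such as hepatocyte markers, Cebpe, Gata6, Afp, Foxc1, Satb1, Pdpn and Stat3, were chosen after their values were seen. Some called genes of the lists are counted but not reported here by name. The fit was tested on simulated data. Alternatives covered scaling (RLE, upper quartile, library totals), the low-count filter (none, stricter), fitting without robust weights, DESeq2 1.42.0, limma voom 3.58.1, leaving out each library, a replicate block, removal of the length trend (lowess span 0.5) and leaving out mitochondrial and hemoglobin genes. Adding Gm20649 to Onecut1 was chosen after the data were seen. Figures were drawn with matplotlib 3.10.9.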

Additional observations from a re-analysis of the deposited data

How the results depend on the processing

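The fold changes of the 9 factors were recomputed under 18 alternatives. So were those of Entpd8, the nearest patterns, the tested genes within 10 kb and the list genes named by smallest p or by call (from a mean log2 CPM of 0 upwards). Neil2 and A530013C23Rik had 17 alternatives and Gm20649 had 16. Genes picked after their values were seen, such as Alb, Gata6, Cebpe and Stat3, were not recomputed. The number of genes called was 2871, 603 to 3080 when each library was left out in turn, and 1468 with the replicate block. The number of the 9 factors called was 2, and 1 to 3 when each library was left out. It was 2 under the 12 alternatives that keep all libraries. The numbers were not treated as pairs, since the labels give genotype only. Over all genes tested, same-numbered libraries did not deviate together (correlations of deviations from the group means of -0.08, 0.01 and -0.09), which does not speak for single genes. The replicate block left Onecut2 (-0.95) and Prox1 (-0.59) called. Under the block, the standard error went from 0.19 to 0.12 for Foxa3 (adjusted p = 0.0978, edgeR) and from 0.17 to 0.19 for Gata4. Signs turned for values near 0. Foxa1 was -0.034 with upper-quartile scaling, -0.066 with library totals and between -0.13 and 0.21 with a library left out. With a library left out, Onecut1 ran from -0.034 to 0.43 and Gata4 from -0.22 to 0.035. The noncoding neighbour 9030622O22Rik of Foxa2 ran from -0.061 to 0.75, and Reln of the lymphatic list from -0.39 to 0.39. Prox1os was -0.0039 with the length trend removed. The cause of these turns was not tested. With 3 libraries per group, small differences in the less abundant factors (Gata4, Foxa1 and Onecut1, near 10 CPM) were not resolved.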
